A study of Homo sapiens with 3 samples.

Results

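The genes described here are 28 enzymes and regulators that make cholesterol and fatty acids, taken by gene symbol from tables of 18345 genes in 3 libraries. All 28 were found. They comprise 19 genes of the sterol branch (7 of the mevalonate stage and 12 from squalene to cholesterol), 7 of the fatty acid branch, and 2 that sense or carry sterols, INSIG1 and STARD4. RNA-seq had been run on differentiating H1 cells, a long-established line of human embryonic stem cells. Per the labels, activin A (40 ng/ml) and BMP4 (50 ng/ml) were given during the first 2 days and VEGF (40 ng/ml) and bFGF (50 ng/ml) during the next 3 days. All are labelled day 4 of hematopoietic differentiation and as CD31+CD34+ cells, called HEPs, and differ by surface CD105 as negative (CD105neg), low (CD105low) or high (CD105high). Each population had 1 library, so no difference below has a replicate check, no p-value is given, and each comparison is of libraries. CD105 is endoglin, an endothelial co-receptor for TGF-beta and BMP ligands.

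Cells build cholesterol from acetyl-CoA. The mevalonate stage yields isoprenoid units that are joined to squalene, and squalene is closed to the first ring-shaped sterol and trimmed to cholesterol. The fatty acid branch starts from the same acetyl-CoA, which ACLY makes from citrate in the cytosol. Transcription of both branches is known to be driven by the SREBP factors, SREBP2 mainly on the sterol side and SREBP1 mainly on the fatty acid side. When membrane cholesterol is low, SCAP escorts SREBP out of the endoplasmic reticulum, and INSIG1 holds the pair back when sterol is plentiful.

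The values are read as FPKM, which corrects fragment numbers for transcript length and library size. Read so, they can be compared between genes, while comparisons between libraries depend on how the libraries are scaled. A gene is called measured when it reached 1 FPKM in at least 1 library. This held for 11343 genes and for all 28 members. Fold changes are of the value plus 1, and a difference of at least 1.5-fold is called higher or lower.

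The lipid synthesis genes were active in all 3 populations and none of the 28 was 1.5-fold apart in any pair of libraries on the deposited scale (SC5D was on other scales, below). Against CD105neg, the median log2 fold change of the sterol branch was 0.23 in CD105low and 0.14 in CD105high. In the fatty acid branch, ACACA (0.34 in CD105high) and FASN (-0.49) lay on opposite sides of no change. In CD105high against CD105neg, 5.65% of the measured genes were at least 1.5-fold higher and 6.88% lower. For CD105low against CD105neg these shares were 4.13% and 2.18%, and for CD105high against CD105low they were 1.18% and 2.19%. Among the 5919 genes at or above 10 FPKM, which include 27 of the members, the shares were 6.20% and 6.40%, then 4.83% and 1.89%, in the comparisons with CD105neg. The member farthest from no change was SC5D in CD105high against CD105neg, and 14.9% of the measured genes lay farther. In CD105low against CD105neg it was SQLE, with 10.6% of genes farther, and in CD105high against CD105low it was NSDHL, with 14.5% farther. Over the 3 libraries, the highest value of a member divided by its lowest ran from 1.04 to 1.47, with a median of 1.23. The median of that ratio was 1.23 for genes at or above 10 FPKM too.

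**Figure D1:**
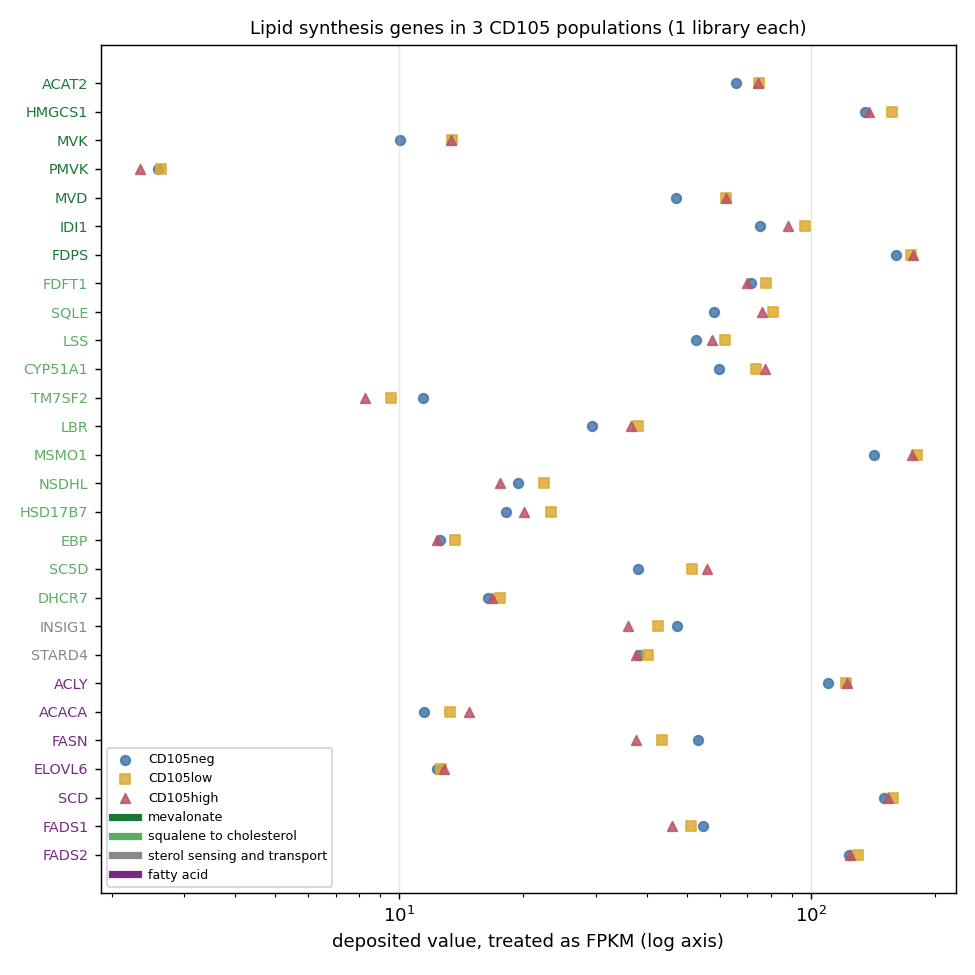
Deposited value of each of the 28 genes (log axis, treated as FPKM) in CD105neg (circles), CD105low (squares) and CD105high (triangles), 1 library each, with gene names coloured by stage. PMVK lies lowest, at 2.34 to 2.63 FPKM, and FDPS, MSMO1, SCD, HMGCS1, FADS2 and ACLY lie above 100 FPKM in every library, while the 3 symbols of each gene lie close together.

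Promoters are shown for the genes that stood highest and lowest within the sterol branch and for a desaturase, because the sterol genes are known to share short promoter elements. Of the members, 24 had 1 or more of the searched RefSeq promoter windows of 300 bases on GRCh38.p14. Stretches are given for MVD and SC5D, with the highest fold change of their stages in CD105high against CD105neg, for TM7SF2, the lowest of the sterol branch, and for FADS1. MVD, SC5D and TM7SF2 were picked after their values were seen. Each line gives the 250 bases before the start site, 5′ to 3′, with CCAAT (the box bound by NF-Y) and GGGCGG (a GC box) in capitals. Matches on the other strand read ATTGG and CCGCCC.
MVD, chr16:88663092-88663341, minus strand: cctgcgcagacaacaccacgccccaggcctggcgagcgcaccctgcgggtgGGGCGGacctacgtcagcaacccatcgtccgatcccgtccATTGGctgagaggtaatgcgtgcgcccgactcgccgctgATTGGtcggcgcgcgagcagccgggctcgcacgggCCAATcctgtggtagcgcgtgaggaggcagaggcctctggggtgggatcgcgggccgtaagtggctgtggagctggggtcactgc
SC5D, chr11:121292521-121292770, plus strand: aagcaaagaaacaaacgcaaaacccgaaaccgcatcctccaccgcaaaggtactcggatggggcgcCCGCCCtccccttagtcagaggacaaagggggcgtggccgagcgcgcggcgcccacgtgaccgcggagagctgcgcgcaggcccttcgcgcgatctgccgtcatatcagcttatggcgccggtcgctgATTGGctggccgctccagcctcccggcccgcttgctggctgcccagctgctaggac
TM7SF2, chr11:65111622-65111871, plus strand: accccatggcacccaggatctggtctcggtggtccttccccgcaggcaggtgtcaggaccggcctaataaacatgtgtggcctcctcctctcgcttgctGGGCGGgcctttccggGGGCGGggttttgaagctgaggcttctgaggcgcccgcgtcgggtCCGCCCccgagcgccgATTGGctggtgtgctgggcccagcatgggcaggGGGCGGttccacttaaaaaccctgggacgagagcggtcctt
FADS1, chr11:61817004-61817253, minus strand: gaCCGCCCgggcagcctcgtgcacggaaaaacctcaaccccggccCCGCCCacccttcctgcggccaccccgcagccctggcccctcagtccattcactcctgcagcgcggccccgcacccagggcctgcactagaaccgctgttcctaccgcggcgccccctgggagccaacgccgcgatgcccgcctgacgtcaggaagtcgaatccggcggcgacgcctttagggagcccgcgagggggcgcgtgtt
MVD holds 3 CCAAT boxes and 1 GC box, SC5D 1 of each, TM7SF2 1 CCAAT box and 4 GC boxes, and FADS1 no CCAAT box and 2 GC boxes. SC5D has 2 promoter windows, and its boxes here are those of the printed stretch only.

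Counted over both strands, CCAAT was present in 23 of the 33 windows of members (69.7%), against 34.6% of all 35116 windows and 34.4% of the 13015 windows of measured genes. Of the sterol genes with a window, 13 of 16 held it, as did 4 of 6 fatty acid genes: ACLY, ACACA, SCD and FADS2. GGGCGG was present in 28 of 33 member windows (84.8%), against 45.0% of all windows and 66.3% of those of measured genes. It was found in 14 of 16 sterol genes and in 6 of 6 fatty acid genes. The counts of genes, for both motifs, take a match in any window of a gene. The same share over all genes was not counted, so the shares of windows are not their background. The core of the sterol regulatory element, searched as TCACNCCAC, was in 0 of 33 member windows and in 1.13% of all windows. These letters overlap neither of the other motifs, and a missing match says only that they are not in these windows. ACAT2, FDFT1, SQLE and FASN had no window among those searched. A chromosome was left out of the search, so its windows are in none of these counts.

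The mevalonate stage held some of the members with the highest values, HMGCS1 and FDPS among them. HMGCS1, the cytosolic HMG-CoA synthase, had 136 FPKM in CD105neg, then 158 FPKM in CD105low and 139 FPKM in CD105high. FDPS, which makes farnesyl diphosphate, stood at 161, 176 and 177 FPKM, and 97.9% of the measured genes were at or below it in CD105neg. IDI1, the isopentenyl diphosphate isomerase, stood at 75.2, 96.6 and 87.9 FPKM. ACAT2, the cytosolic thiolase that joins acetyl-CoA units, stood at 65.7, 74.6 and 74.4 FPKM. In these 4 genes CD105neg had the lowest value.

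Both of the larger differences of this stage separated CD105neg from the other populations. MVD, the decarboxylase that ends the stage, stood at 47.1 FPKM in CD105neg against 62.2 FPKM in CD105low and 62.3 FPKM in CD105high (log2 fold changes 0.39 and 0.39 against CD105neg). MVK, mevalonate kinase, stood at 10.04, 13.4 and 13.4 FPKM (0.38 and 0.38). CD105low and CD105high were nearly equal in both genes. PMVK, the kinase that acts directly after MVK, was the lowest member of all, at 2.59, 2.63 and 2.34 FPKM, so consecutive kinases of the stage differed in level and in order across the libraries. The stage as a whole had a median log2 fold change of 0.21 in CD105low and 0.18 in CD105high against CD105neg.

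The enzymes that make squalene and close it to a ring had their highest deposited value in CD105low. FDFT1, squalene synthase, stood at 71.5, 77.7 and 69.8 FPKM in CD105neg, CD105low and CD105high. SQLE, squalene epoxidase, an oxygen-dependent and often rate-limiting step, stood at 58.3, 81.03 and 76.03 FPKM, a log2 fold change of 0.47 in CD105low and 0.38 in CD105high. LSS, which closes the ring system to lanosterol, stood at 52.6, 61.8 and 57.5 FPKM. With each library scaled to the same total, SQLE and LSS were nearly equal in CD105low and CD105high (log2 fold changes of CD105high against CD105low 0.0087 and -0.0026). SQLE was lower than FDFT1 in CD105neg, with a ratio of 0.815, and higher in CD105low and CD105high, with ratios of 1.04 and 1.09.

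The enzymes that demethylate lanosterol did not all share 1 order. CYP51A1, the sterol C14 demethylase, stood at 59.8, 73.7 and 77.5 FPKM, with its highest value in CD105high. MSMO1, the C4 methylsterol oxidase, was the highest gene of this stage, at 142, 181 and 176 FPKM (log2 fold changes 0.34 in CD105low and 0.31 in CD105high). Its partner NSDHL stood at 19.4, 22.4 and 17.6 FPKM, and HSD17B7, the keto-reductase of the same complex, at 18.2, 23.4 and 20.05 FPKM. CD105low had the highest deposited value in MSMO1, NSDHL and HSD17B7, but not in MSMO1 with equal totals or equal upper quartiles. NSDHL had the largest difference of any member between CD105high and CD105low, with a log2 fold change of -0.33.

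LBR and TM7SF2 are known to carry out the same reaction, the reduction of the sterol C14 double bond, and against CD105neg their differences had opposite signs. LBR, which is also an inner nuclear membrane protein that binds lamin B, had 29.3 FPKM in CD105neg, then 37.9 FPKM in CD105low and 36.6 FPKM in CD105high. TM7SF2 stood at 11.4, 9.53 and 8.24 FPKM (log2 fold changes -0.24 in CD105low and -0.43 in CD105high against CD105neg). The ratio of LBR to TM7SF2 within a library, which does not depend on how libraries are scaled, was 2.57 in CD105neg, 3.98 in CD105low and 4.45 in CD105high. TM7SF2 was the only gene of the sterol branch that was lower in CD105low than in CD105neg on the deposited scale. On scales centred on the median gene or on the upper quartile, PMVK was lower too.

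The last enzymes differed from each other. SC5D, the C5 desaturase, had the largest difference of all members and followed the order of the sort, at 38.04 FPKM in CD105neg, then 51.5 FPKM in CD105low and 55.8 FPKM in CD105high (log2 fold changes 0.43 and 0.54 against CD105neg). It was just inside the 1.5-fold limit. With each library scaled to the same total or the same upper quartile, or centred on the median gene, it passed that limit in CD105high against CD105neg. EBP, the sterol isomerase that acts before it, stood at 12.6, 13.7 and 12.3 FPKM. DHCR7, a final reductase of the pathway, stood at 16.5, 17.6 and 16.8 FPKM. SC5D, which works between EBP and DHCR7, thus differed more between the libraries than either of them.

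INSIG1 and STARD4 differed from each other in their order. INSIG1, itself a known SREBP target, had 47.4 FPKM in CD105neg, then 42.6 FPKM in CD105low and 35.95 FPKM in CD105high (log2 fold changes -0.15 and -0.39 against CD105neg), so its order was the reverse of that of the sort. The ratio of HMGCS1 to INSIG1 was 2.87, 3.70 and 3.86 in the same order of libraries. STARD4, a carrier of cholesterol between membranes, stood at 38.2, 40.2 and 37.7 FPKM, with CD105low highest.

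The fatty acid branch held enzymes that differed in opposite directions. FASN, the fatty acid synthase that builds palmitate, had 53.1 FPKM in CD105neg, then 43.5 FPKM in CD105low and 37.5 FPKM in CD105high. These were the lowest fold changes of all members against CD105neg (-0.28 and -0.49). ACACA, acetyl-CoA carboxylase 1, which makes the malonyl-CoA that FASN uses, stood at 11.5, 13.3 and 14.8 FPKM (0.20 and 0.34). FASN and ACACA therefore had opposite orders, and the ratio of FASN to ACACA was 4.62 in CD105neg, 3.27 in CD105low and 2.53 in CD105high. ACLY, the ATP citrate lyase, stood at 110, 122 and 122 FPKM.

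Among the enzymes that lengthen and desaturate fatty acids, ELOVL6, SCD and FADS2 were nearly level. ELOVL6, which elongates palmitate, stood at 12.3, 12.6 and 12.8 FPKM, and SCD, the stearoyl-CoA desaturase, at 151, 159 and 154 FPKM. FADS2, the delta-6 desaturase of polyunsaturated fatty acids, stood at 124, 130 and 124 FPKM. FADS1, the delta-5 desaturase and its neighbour in the genome, stood at 54.6, 51.1 and 45.9 FPKM (log2 fold changes -0.09 in CD105low and -0.25 in CD105high against CD105neg). The ratio of FADS2 to FADS1 was 2.27, 2.55 and 2.71, and that of SCD to FASN was 2.84, 3.64 and 4.11. The ratios given here were chosen after the values were seen. The desaturases overlap at their 5′ ends on opposite strands: 490 exonic bases are shared, 4.79% of those of FADS1 and 4.44% of those of FADS2. The kit does not mark strand, so reads there cannot be told apart.

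**Figure D2:**
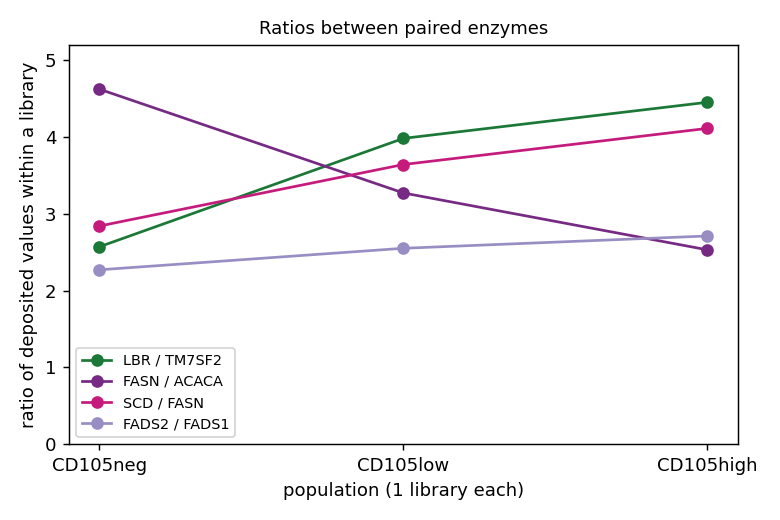
Ratio of the deposited values of paired enzymes within each library (vertical axis, from 0) in CD105neg, CD105low and CD105high, 1 library each. LBR over TM7SF2 goes from 2.57 to 4.45 and SCD over FASN from 2.84 to 4.11, FASN over ACACA goes from 4.62 to 2.53, and FADS2 over FADS1 stays between 2.27 and 2.71.

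Set side by side, the sterol branch stood above the fatty acid branch in both comparisons with CD105neg. In CD105low against CD105neg, the median log2 fold change was 0.23 over the sterol genes and 0.07 over the fatty acid genes, a difference of 0.16, while the median of all measured genes was 0.02. In CD105high against CD105neg, the medians were 0.14 and 0.03, a difference of 0.10, with -0.09 over all measured genes. Without the 5 members that share sequence with other genes, all of the sterol branch, the sterol median there was 0.08 and the difference 0.048. In CD105high against CD105low, they were -0.09 and -0.04, with -0.10 over all measured genes. Both signs turned there with equal totals (0.0087 and 0.059) and after centring, and that of the fatty acid genes with equal upper quartiles as well. The comparisons with CD105neg share that library. The range within each branch was wider than the distance between them: in CD105high against CD105neg, the sterol genes ran from -0.43 (TM7SF2) to 0.54 (SC5D) and the fatty acid genes from -0.49 (FASN) to 0.34 (ACACA).

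**Figure D3:**
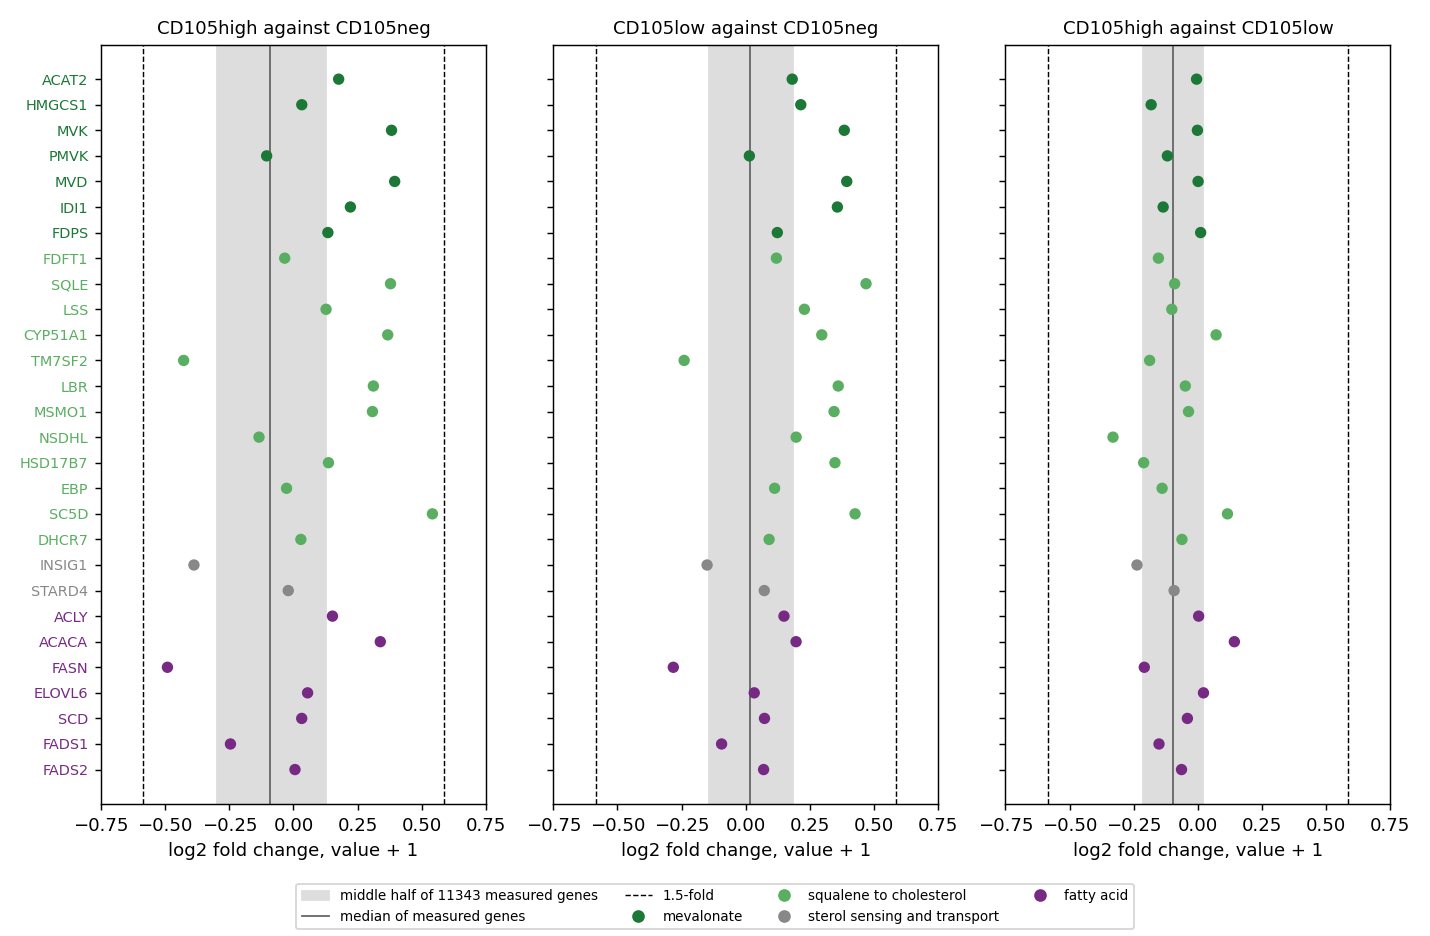
Log2 fold change (value + 1) of each of the 28 genes in the 3 pairs of libraries, coloured by stage. The grey band holds the middle 50% of the measured genes, the grey line is their median and the dashed lines mark 1.5-fold. All points lie inside the dashed lines. In CD105low against CD105neg, 18 of 19 sterol genes lie to the right of 0, and FASN and TM7SF2 lie farthest to the left.

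Counts were also taken without the 1.5-fold limit and with a smaller limit of 0.32 on the log2 scale. In CD105low against CD105neg, 18 of 19 sterol genes and 5 of 7 fatty acid genes were higher at all, where 52.7% of the measured genes were. At the smaller limit, 8 of 19 sterol genes (MVK, MVD, IDI1, SQLE, LBR, MSMO1, HSD17B7 and SC5D) and 0 of 7 fatty acid genes were higher, against 12.7% of measured genes, and 0 members were lower, against 9.50%. In CD105high against CD105neg, 14 of 19 sterol genes and 5 of 7 fatty acid genes were higher at all, against 39.0%. The branches had similar shares in that count. At the smaller limit, 6 members were higher there (MVK, MVD, SQLE, CYP51A1, SC5D and ACACA), against 12.9% of measured genes. These were 5 of 19 sterol genes and 1 of 7 fatty acid genes. In the same comparison 3 members were lower (TM7SF2, INSIG1 and FASN), against 22.8%. In CD105high against CD105low, 7 of 28 members were higher at all, against 28.5%. At the smaller limit, 0 members were higher there, against 4.16%, and NSDHL alone was lower, against 11.2%.

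The order of the libraries depended on the scale. CD105low had the highest value in 17 of 28 members, 14 of them sterol genes, against 35.1% of measured genes. It lay in between in 11 members, against 54.0% of measured genes, and had the lowest value in 0, against 10.9%. With each library scaled to the same total, CD105low was highest in 8 members, against 25.96% of measured genes, and with the same upper quartile in 9, against 25.01%. CD105neg had the lowest value in 14 of 19 sterol genes and 5 of 7 fatty acid genes, against 35.1% of measured genes. On the deposited scale, FASN, FADS1, TM7SF2 and INSIG1 were the members that went down from CD105neg through CD105low to CD105high. They kept that order after each of these scalings. These were 4 of 28 members, against 36.4% of measured genes on the deposited scale. With equal upper quartiles PMVK went down too, by log2 fold changes of -0.0032 (CD105low against CD105neg) and -0.067 (CD105high against CD105low). The opposite order, rising with the sort, was seen in 7 of 28, against 17.6%, on the deposited scale. With equal totals and with equal upper quartiles, ACAT2, MVK, LBR, MSMO1, DHCR7, SCD and FADS2 rose with the sort too. SQLE and STARD4 did so with equal totals only. The shares of all measured genes in the rising and in the falling order were not counted on those scales.

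Summed over genes, the sterol branch took 0.355% of the deposited total in CD105neg, 0.433% in CD105low and 0.444% in CD105high. The fatty acid branch took 0.178%, 0.186% and 0.193%. As plain sums, the sterol genes reached 1027, 1234 and 1180 FPKM and the fatty acid genes 515.7, 530.9 and 511.5 FPKM. The totals themselves were 289229, 284824 and 265618 over all genes. Shares and sums thus gave a different order of CD105low and CD105high for the sterol genes and for the fatty acid genes.

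Other genes of the pathway were read from 3 lists of 86 genes, of which 82 were in the tables and 72 were measured. For comparison, 5.65% of all measured genes were higher and 6.88% lower in CD105high than in CD105neg. In the list of other sterol and isoprenoid genes, 0 of 12 measured genes were higher and 2 were lower in CD105high than in CD105neg. These were GGPS1, which draws farnesyl diphosphate away to geranylgeranyl diphosphate, at 27.0, 17.1 and 17.3 FPKM, and PDSS1, which makes the side chain of coenzyme Q, at 6.89, 4.61 and 3.53 FPKM. The ratio of FDPS to GGPS1 was 5.97, 10.3 and 10.2.

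In the list of sterol sensing, uptake, efflux and storage, 2 of 27 measured genes were higher in CD105high than in CD105neg and 0 were lower. Of all measured genes, 5.65% were higher and 6.88% lower. LIPA, the lysosomal lipase that frees cholesterol from lipoproteins taken up, stood at 13.7, 17.7 and 22.2 FPKM. STARD5, a sterol carrier, stood at 2.33, 1.76 and 4.04 FPKM and was higher in CD105high than in CD105low as well. Among the highest genes of the list were NPC2, which moves cholesterol out of lysosomes, at 44.4, 43.6 and 52.5 FPKM, and STARD3NL, at 49.7, 51.5 and 39.3 FPKM. SREBF1, SREBF2, NR1H2 and NR1H3 were not analysed here. SCAP stood at 19.8, 17.1 and 16.1 FPKM.

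In the list of other fatty acid genes, 1 of 33 measured genes was higher in CD105high than in CD105neg and 2 were lower. The shares over all measured genes were 5.65% and 6.88%. HACD2 and HACD1 belong to a family of dehydratases of fatty acid elongation and went in opposite directions. HACD1 stood at 45.8, 31.4 and 25.5 FPKM and HACD2 at 2.56, 2.13 and 4.90 FPKM. DGAT2, which makes triglycerides, stood at 1.85, 1.46 and 0.65 FPKM. HACD3 stood at 89.02, 101 and 94.4 FPKM, ELOVL5, which elongates polyunsaturated fatty acids, at 47.99, 58.9 and 59.8 FPKM, and HSD17B12 at 53.3, 51.2 and 43.6 FPKM. In CD105low against CD105neg, GGPS1 was the only gene of the 3 lists that was 1.5-fold apart, and in CD105high against CD105low STARD5 and HACD2 were. Over all measured genes, the shares higher and lower were 4.13% and 2.18%, then 1.18% and 2.19%.

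Lists of marker genes are given beside the members, and not all of them followed the order of the sort. ENG, which encodes CD105, stood at 2.12, 8.56 and 13.8 FPKM, which is the order of the sort. In CD105high against CD105neg, 10 of 11 endothelial markers were higher, against 5.65% of all measured genes. ENG, whose product was sorted on, is among these 10. The sum over the 11 markers, ENG included, was 735.4 FPKM in CD105neg, then 1116 FPKM in CD105low and 1266 FPKM in CD105high. KDR, a VEGF receptor, was the highest of them. All 9 measured genes of 16 erythroid and megakaryocyte markers were lower in CD105high than in CD105neg, against 6.88% of all measured genes. The sum over the 16 markers was 70.91, 26.45 and 13.29 FPKM, led by RHAG at 26.3, 10.9 and 5.71 FPKM. SLC4A1 was listed at 0 in all libraries. Mesenchymal and mural markers summed to 270.4, 260.6 and 209.7 FPKM, led by RGS5, and the 7 pluripotent and epithelial markers in the tables to 300.1, 245.2 and 204.9 FPKM, led by KRT8. None of the 6 adipocyte markers reached 1 FPKM, PLIN4 being the highest, and FABP4 was listed at 0 in all libraries. Endoderm and liver markers summed to 9.62, 8.19 and 9.25 FPKM, led by APOA1, and leukocyte markers to 4.93, 5.17 and 3.59 FPKM, led by SPN, with MPO and CD3E listed at 0. The 6 neural markers summed to 92.0, 82.9 and 79.3 FPKM, led by NES. The part of these markers in the lipid synthesis values was not tested, and in bulk samples fewer cells of a type and less RNA per cell cannot be told apart.

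Cell cycle genes were summed in the same way. The 12 mitosis genes reached 626.5, 754.5 and 676.7 FPKM, which was 120% of CD105neg in CD105low and 108% in CD105high. The sterol branch stood at 120% and 115% of CD105neg in the same libraries, and the fatty acid branch at 103% and 99.2%. These sums depend on how the libraries are scaled. As shares of the deposited total, the sterol branch was 0.355% in CD105neg, 0.433% in CD105low and 0.444% in CD105high. The fatty acid branch was 0.178%, 0.186% and 0.193%. Shares were not taken for the cell cycle lists. As sums, the 12 DNA replication genes stood at 81.2% and 68.5% of CD105neg. The highest genes of these lists were CDK1 for mitosis and PCNA for replication. The part of cell division in the sterol values was not tested.

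**Figure D4:**
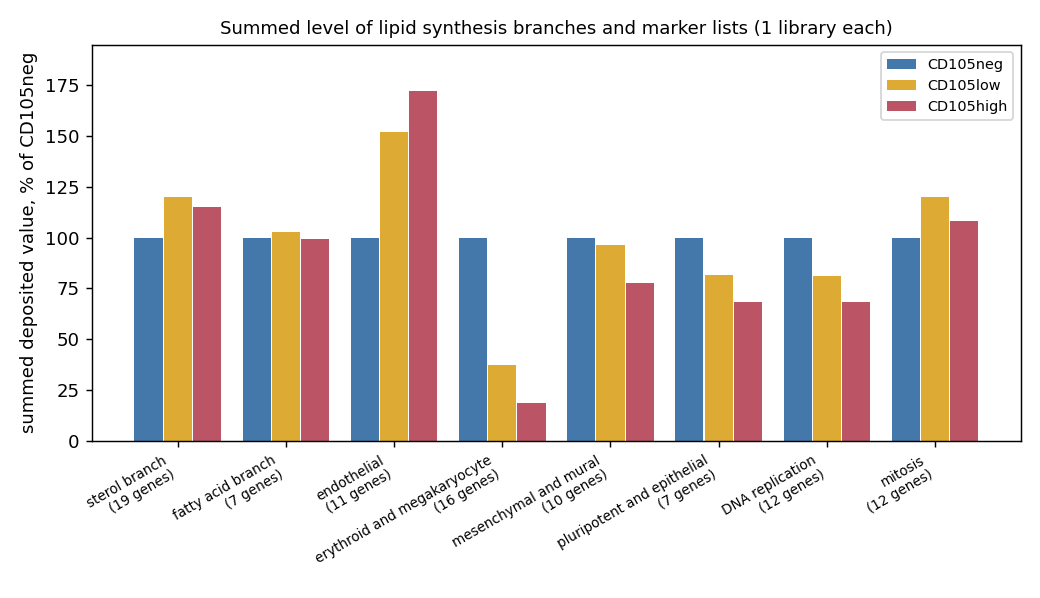
Summed deposited value of each branch and of 6 marker or cell cycle lists, as percent of CD105neg (vertical axis, from 0), for CD105neg, CD105low and CD105high, 1 library each. The sterol branch reaches 120% and 115% and the fatty acid branch stays near 100% on this scale. The endothelial list reaches 172% and the erythroid and megakaryocyte list 18.7% in CD105high. The sums are not corrected for the library totals.

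Some members are less certain than the rest. Of the 50-base pieces of their annotated transcripts, at least 10% also occur in a transcript of another gene for CYP51A1 (85.0%), ACAT2 (44.0%), HSD17B7 (27.6%), FDPS (24.8%) and IDI1 (13.1%). The gene that holds most of these pieces was AC000120.2 for CYP51A1 and the pseudogene HSD17B7P2 for HSD17B7. For ACAT2, FDPS and IDI1 it was a gene on the opposite strand, SOD2-OT1, RUSC1-AS1 and IDI2-AS1. TM7SF2, LBR, SQLE, FASN, INSIG1, NSDHL, EBP, DHCR7 and PMVK shared none.

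GC content can shift values between libraries, so it was set beside the branches. The median GC content of the longest transcript was 50.2% in the sterol branch and 50.1% in the fatty acid branch. In CD105high against CD105neg, the median log2 fold change was -0.01 in the 20% of measured genes lowest in GC and -0.13 in the 20% highest. TM7SF2 and FASN, at 64.2% and 65.3% GC, were in that highest group and lay at -0.30 and -0.36 relative to its median. SC5D, at 38.6% GC, stood 0.56 above the median of the lowest group.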

How the data were processed

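RNA-seq of 3 populations of H1-derived CD31+CD34+ cells was used, with 1 library each, made from 2 ug of total RNA with an unstranded TruSeq kit, per the labels' protocols. Tools listed in the submitters' processing notes are RSEM, Bowtie and BWA, on hg19, without versions or roles. The annotation and any filters were not given in the sources used here. The deposited values name no unit and were treated as FPKM; TPM would differ by 1 factor per library. The lowest values of single-transcript genes, times transcript length, fell on steps. If the values are FPKM, the steps put CD105low at 1.10 and CD105high at 1.03 times the depth of CD105neg. Absolute depth is unknown, so no counting interval is given. The header of the CD105neg values looks like a CD105 positive name; the sample's own labels set its group.

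Log2 fold changes were taken on the deposited scale after adding a pseudocount of 1, so the change of low genes is understated (Python 3.11.15, pandas 2.3.3). With 1 library per group no test was possible. The code was tested on simulated data. Gene identifiers were matched to GENCODE 29 (GRCh38) for shared sequence, opposite-strand exons and GC content, and symbols to RefSeq promoter windows, which run from 250 bases before to 50 after the start. The members and lists were chosen with earlier results of these data known. Named were all members, the 3 highest genes of each pathway list and those 1.5-fold apart in any pair, and the highest genes of the marker lists. Some genes that this rule names are counted in their lists but are not reported here. ENG, SLC4A1, FABP4, MPO, CD3E and SCAP were added after their values were seen. Alternatives were the pseudocount, the filter, the fold limit, scaling, centring, members that share sequence and members with other functions; the GC correction and the count of the order of libraries under upper-quartile scaling were added after seeing the data.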

Additional observations from a re-analysis of the deposited data

How the results depend on the processing

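With 1 library per population, no replicate could be left out, and depth limits cannot be stated because absolute depth is unknown. No paired analysis was possible because each population has a single library and the labels carry no replicate numbers. Of 147 values under alternatives, 129 moved by at most 0.1 (log2) and kept their sign, stayed within 1.5 times (counts) or within 15% (shares). Some of the 147 could not move: all members were measured, so leaving out the filter on low values changes nothing. The sterol minus fatty acid difference kept its sign under the 10 alternatives tried in each pair: 0.048 (without the members that share sequence) to 0.124 in CD105high against CD105neg, 0.146 to 0.193 in CD105low against CD105neg and -0.055 to -0.015 in CD105high against CD105low. The GC correction, added after seeing the data, gave 0.121, 0.159 and -0.038. Leaving out the filter and centring cannot change the difference between the branches, and scaling a library moves both branches nearly alike. These settings are therefore no check on that difference.

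In CD105high against CD105neg, 1 member (SC5D) was 1.5-fold higher after scaling to equal totals, after centring and after upper-quartile scaling. At the smaller limit of 0.32 (log2), 6 members were higher and 3 lower there, 8 were higher in CD105low against CD105neg, and 1 was lower in CD105high against CD105low. Equal totals, which move the median of all genes in CD105high against CD105neg from -0.09 to 0.02, gave medians of 0.26 (sterol) and 0.15 (fatty acid). In CD105high against CD105low the sign turned: the sterol median was 0.0087 with equal totals and 0.0077 after centring, and the fatty acid median was 0.059 with equal totals, 0.057 after centring and 0.032 with equal upper quartiles. The number of members highest in CD105low was 8 with equal totals and 9 with equal upper quartiles. Without 114 ribosomal protein and mitochondrial genes, the shares in CD105neg were 0.420% (sterol) and 0.211% (fatty acid).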
